A study of Homo sapiens with 12 samples.

Results

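*FOS*, *FOSL1*, *FOSL2*, *JUN*, *JUNB*, *JUND*, *EGR1*, *ATF3*, *IER2* and *MYC* are 10 genes of the early transcriptional response to a stimulus. They were followed here through a BMP stimulus given to cells with and without *MIB1*. The 10 were chosen by name, as immediate early genes, subunits of the AP-1 transcription factor and *MYC*, and they are 10 of the 58302 gene identifiers in the counts. All 10 passed the filter on low counts, which kept 17188 genes. RNA-seq was done on 12 libraries of MIB1-iKO cells, a single-cell clone of the lung cancer line NCIH838. The clone carries a guide RNA against *MIB1*, an E3 ubiquitin ligase, and Cas9 that is induced by Dox. Every library came from cells held for 3 days in 50 nmol/L LDN, which inhibits BMP type I receptors, and then given 10 ng/mL BMP4 for 24 hours. The 4 groups of 3 libraries were MIB1 WT with BMP-off (no Dox, LDN kept beside BMP4), MIB1 WT with BMP-on (no Dox, DMSO in place of LDN), and the same BMP-off and BMP-on treatments of MIB1 KO cells, which had 0.5 µg/mL Dox in the first step. Dox and Cas9 cutting were present in every KO library and in no WT library, so that they cannot be told apart from *MIB1* loss. Samples were taken at a single time, 24 hours after BMP4.

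AP-1 is a dimer of a JUN family protein with another JUN protein or with a FOS family or ATF family protein, and it binds DNA through a basic leucine zipper. Most FOS family and JUN family genes, *EGR1* and *IER2* are transcribed within minutes of growth factor or stress signals, without new protein synthesis, through serum response factor with its ETS partners, CREB and AP-1 itself. Their mRNAs decay fast, so that the first burst is brief. *MYC* is a transcription factor that pairs with MAX at E-box sequences to drive ribosome production and growth, and the MXD, *MXI1* and MNT proteins compete for MAX. BMP receptors phosphorylate SMAD1, SMAD5 and SMAD9, which join SMAD4 on GC-rich and GTCTG-like DNA elements, and SMADs are known to cooperate with AP-1.

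The start regions of 3 genes that were higher with BMP-on in KO cells (*JUNB*, *IER2* and *FOS*) and of *EGR1*, the classic target of serum response factor, are shown so that their base composition and the letters of known elements can be read. Each sequence is the 250 bases before the annotated start, 5′ to 3′ on the strand of the gene, from RefSeq (GRCh38.p14), and capitals mark matches to any motif searched. The positions are chr19:12791236-12791485 for *JUNB*, chr19:13150161-13150410 for *IER2*, chr14:75278578-75278827 for *FOS* and chr5:138465229-138465478 for *EGR1*, each on the plus strand.
JUNB: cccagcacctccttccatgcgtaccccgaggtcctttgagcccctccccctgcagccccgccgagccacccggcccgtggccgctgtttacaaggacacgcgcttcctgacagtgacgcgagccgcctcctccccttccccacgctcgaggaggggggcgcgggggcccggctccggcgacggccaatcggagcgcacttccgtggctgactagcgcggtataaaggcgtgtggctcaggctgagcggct
IER2: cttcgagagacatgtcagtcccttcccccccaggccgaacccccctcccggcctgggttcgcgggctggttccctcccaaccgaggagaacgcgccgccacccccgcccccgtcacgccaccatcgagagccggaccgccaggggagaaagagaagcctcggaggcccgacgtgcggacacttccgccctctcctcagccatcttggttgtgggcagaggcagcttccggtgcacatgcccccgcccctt
FOS: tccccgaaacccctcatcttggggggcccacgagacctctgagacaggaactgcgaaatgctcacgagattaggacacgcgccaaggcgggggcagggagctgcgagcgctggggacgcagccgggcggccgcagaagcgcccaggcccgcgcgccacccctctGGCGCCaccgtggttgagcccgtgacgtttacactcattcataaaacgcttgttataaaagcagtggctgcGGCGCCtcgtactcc
EGR1: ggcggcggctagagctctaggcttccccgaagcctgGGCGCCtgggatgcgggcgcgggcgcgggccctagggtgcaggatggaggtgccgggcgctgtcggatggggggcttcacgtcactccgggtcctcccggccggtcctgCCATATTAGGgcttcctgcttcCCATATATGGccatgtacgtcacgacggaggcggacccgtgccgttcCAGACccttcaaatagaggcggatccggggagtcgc

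The motifs searched, on both strands, were an AP-1 site (TGANTCA), a CRE (TGACGTCA), an E-box (CACGTG), a SMAD box (GTCTAGAC), a BMP element (GGCGCC), a short SMAD4 site (GTCTG), an EGR site (GCGTGGGCG) and the CArG box of serum response factor by name, and no motif contained another. Among 35116 RefSeq windows of 250 bases, they were present in 6.57%, 1.65%, 6.34%, 0.182%, 16.4%, 38%, 0.72% and 1.16%, in that order. *EGR1* had CArG boxes beginning 105 and 83 bases before its start, a BMP element at 214 and a SMAD4 site at 36. *FOS* had BMP elements at 86 and 15. *JUNB* and *IER2* had none of these letters in the window. The windows of *JUNB*, *IER2*, *EGR1* and *FOS* held 70.8%, 69.6%, 68.4% and 64.8% G and C, against a median of 58% over all windows. Windows were taken for 8 of the 10 genes. *FOSL1* was not matched in the RefSeq table. *MYC* was not searched, because windows on chromosome 8 were left out for the 10 genes. Outside the 4 windows shown, *JUND* held a CRE at 200 bases, *FOSL2* a SMAD4 site at 75, and *JUN* held none. *ATF3* had 2 windows in the table, neither at the start of its main GENCODE transcript, and 1 of them held a SMAD4 site.

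Total counts ranged from 19124010 to 29498000 per library, and the 10 genes had between 110 counts (*EGR1*, its lowest library) and 4943 counts (*FOSL2*, its highest). *MIB1* was between 144 and 176 CPM (counts scaled by library size and TMM) in the 6 WT libraries and between 31.0 and 34.4 in the 6 KO libraries. All 7 BMP target genes listed as a control (*ID1*, *ID2*, *ID3*, *SMAD6*, *SMAD7*, *BAMBI* and *NOG*) were higher with BMP-on in both WT and KO cells, with medians of 1.29 and 1.39 on the log2 scale. The epithelial keratins *KRT8* and *KRT18* were at 92.7 CPM or more in every library, *EPCAM* was at 4.93 to 9.83, and *KRT19* had at most 2 counts. Of 9 markers of other cell types, *PTPRC* had 0 counts in all 12 libraries. *COL1A1* ranged from 11.0 to 41.0 CPM, and each of the other markers stayed at or below 1.44 CPM. Their summed level was 13.7 to 22.2 CPM in the BMP-off groups and 31.1 to 44.1 in the BMP-on groups, so it moved with BMP, and its part in the results was not tested.

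Libraries of one group differed in a way related to base composition. For each library, the GC trend is the Spearman correlation, across the genes tested, between a gene's deviation from its group mean and the GC content of its longest transcript. It ran from -0.603 in KO BMP-off replicate 2 to 0.586 in KO BMP-off replicate 3, whereas the WT BMP-on libraries lay between -0.155 and 0.132. The 10 transcripts spanned 46.7% (*ATF3*) to 69.9% GC (*JUND*). *JUNB*, at 64.9%, followed the trend of its library, with a correlation of 0.938 between its deviation and the GC trend. This value was 0.819 for *FOSL2*, 0.662 for *IER2*, 0.182 for *MYC* and -0.544 for *ATF3*. These are descriptions over 12 libraries that share the 4 group means. A correction for GC, a smooth trend per library on transcript GC content added to the model, was also run. Its trend was fitted to the deviation of each library from a gene's mean over all 12 libraries, not from the group mean. It therefore also took out differences between groups that follow GC content. These cannot be told apart from effects of BMP or of *MIB1* loss on genes of that GC content. Called genes that lost their call or changed in size by over 1.5 times with it are given below with both values.

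**Figure D1:**
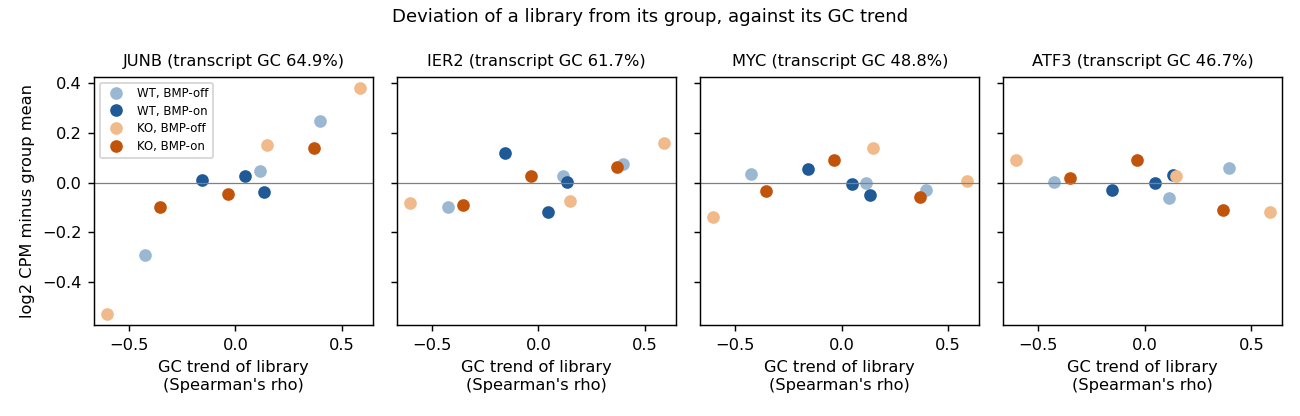
For *JUNB*, *IER2*, *MYC* and *ATF3*, the deviation of each of 12 libraries from its group mean (log2 CPM, vertical axis) is plotted against the GC trend of that library (Spearman's rho across genes, horizontal axis), with points coloured by group. *JUNB* runs from -0.53 in KO BMP-off replicate 2 to 0.38 in KO BMP-off replicate 3, and *MYC* stays within 0.14 of 0.

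Levels compared between genes are in RPKM, which is scaled by gene length and library size, as normalized by the authors. By the mean over 12 libraries, *JUNB* stood at 36.5 RPKM (range 18.4 to 54.1), *FOSL2* at 24.4, *JUND* at 21.0, *ATF3* at 20.0, *FOSL1* at 15.9, *IER2* at 14.6, *MYC* at 8.68, *FOS* at 6.22, *JUN* at 2.80 and *EGR1* at 1.80 (range 1.55 to 2.16). The ranges of neighbours in this order overlapped, except between *IER2* and *MYC* and between *FOS* and *JUN*. *JUNB* was above *FOSL2* in 11 of 12 libraries, and the exception was the KO BMP-off library with the lowest *JUNB*. At 24 hours the cells therefore held far more mRNA of *JUNB*, *FOSL2* and *JUND* than of *JUN*, *FOS* or *EGR1*.

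**Figure D2:**
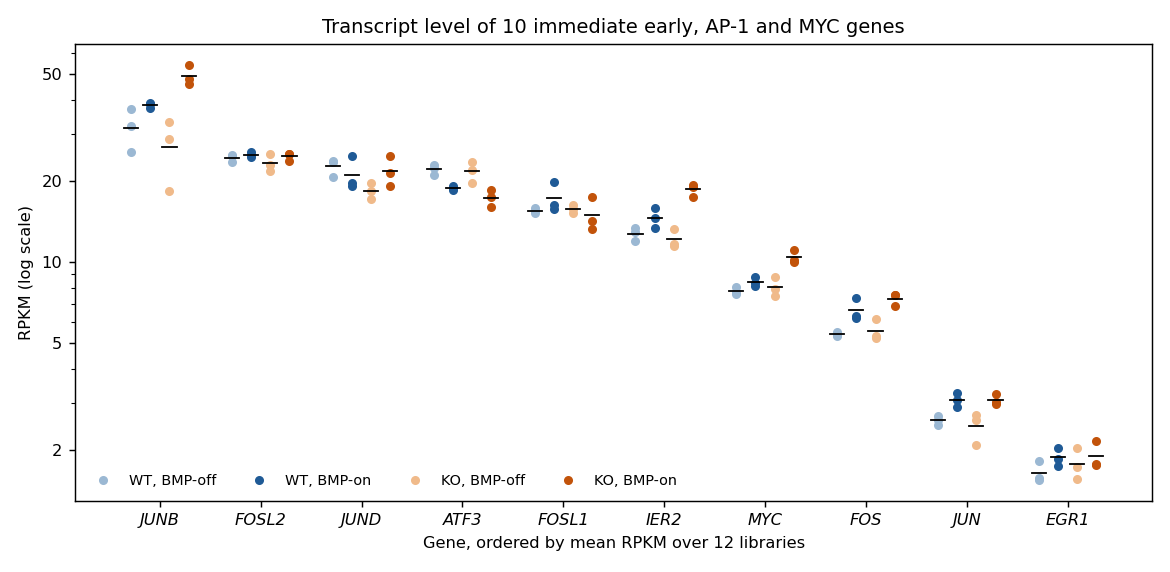
RPKM (log scale) of the 10 genes, ordered by their mean, with 1 point for each library, colours for the 4 groups and a bar at each group mean (3 libraries). *JUNB* spans 18.4 to 54.1 RPKM and *EGR1* 1.55 to 2.16, and the KO BMP-on points of *JUNB*, *IER2* and *MYC* lie above those of the other groups.

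Within the JUN family (*JUN*, *JUNB* and *JUND*, summed RPKM), *JUNB* made up 55.2% ± 3.07 (SD, n = 3) under BMP-off and 61.4% ± 3.53 under BMP-on in WT cells. In KO cells it was 55.5% ± 6.98 with BMP-off and 66.5% ± 1.43 with BMP-on. *JUND* was the second part, at 39.3% ± 6.82 and 29.3% ± 1.78 in KO cells, and *JUN* made up 3.68% to 5.58% in every library. Of the FOS family (*FOS*, *FOSB*, *FOSL1* and *FOSL2*), *FOSL2* held 46.6% to 53.7% and *FOSL1* 29.3% to 37.5% across libraries. *FOS* itself was 12.2% ± 0.395 of the family in KO cells with BMP-off and 15.3% ± 1.15 with BMP-on (SD, n = 3), with no test of the share. *FOSB*, a close relative of *FOS*, held at most 2.44%.

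The response to BMP was tested within each *MIB1* state, by setting BMP-on libraries beside BMP-off libraries, with edgeR's quasi-likelihood test and Benjamini-Hochberg adjustment over 17188 genes, where genes with an adjusted p of up to 0.05 are named as called. In KO cells 5 of the 10 genes were higher with BMP-on (*JUNB*, *IER2*, *FOS*, *MYC* and *JUN*), where 11.1% of all genes were called higher. *ATF3* was the single gene lower, where 10.9% of all genes were called lower. In WT cells edgeR called 0 of the 10, where 1.91% of all genes were called higher and 2.01% lower. There, 4 of the 10 had an unadjusted p under 0.05, DESeq2 called 1 (*FOS*), and limma-voom called 0. The correction for GC gave 585 genes higher and 955 lower in WT cells, against 328 and 346 without it. The median log2 fold change of the 10 was 0.32 in KO cells, against 0.0056 over all genes, and 0.19 in WT cells, against 0.0016. With the correction for GC the median of the 10 was 0.13 in KO cells and 0.12 in WT cells. None of the 10 reached a log2 fold change of 1 beside that p, the rule of the study, which 1.66% of genes passed in KO cells and 0.425% in WT cells. Whether fewer cells expressed a gene or each cell held less of its RNA cannot be told apart in these bulk samples. The labels do not say that replicates were separate cultures, so the p values measure the spread between these samples, which may be technical.

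**Figure D3:**
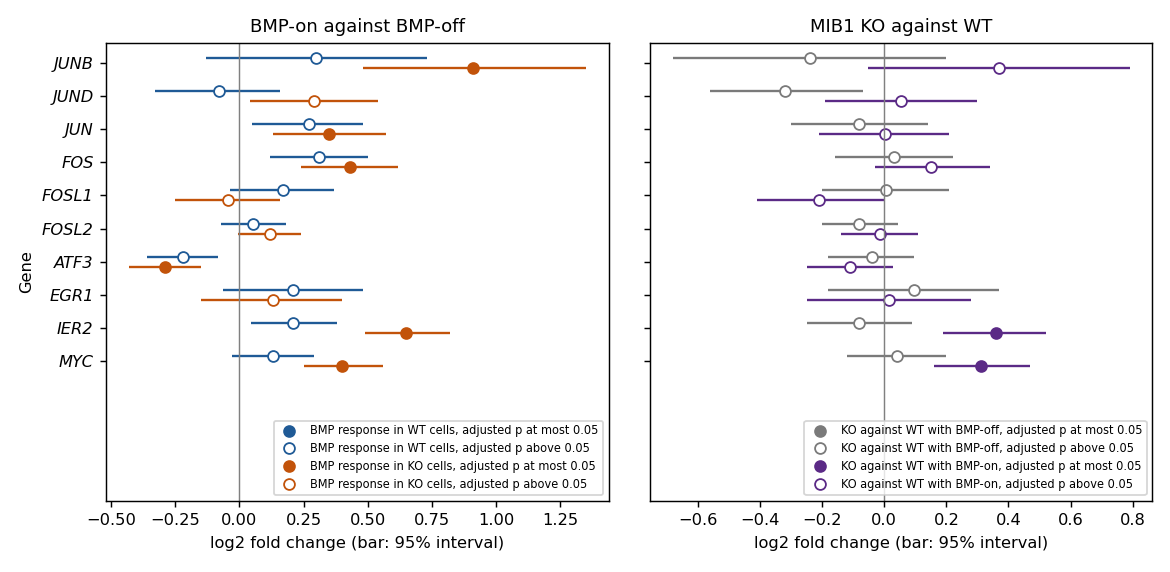
Log2 fold changes with 95% intervals of the 10 genes, for the BMP response of WT cells and of KO cells on the left and MIB1 KO against WT with BMP-off and BMP-on on the right (3 libraries per group). Filled points have an adjusted p of at most 0.05, and these are *JUNB*, *JUN*, *FOS*, *ATF3*, *IER2* and *MYC* on the left, in KO cells, and *IER2* and *MYC* on the right, with BMP-on.

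*JUNB* (chr19:12791486-12793315, plus strand, a single-exon gene) encodes a JUN protein that activates weakly and often restrains *JUN*. In KO cells it was at 49.7, 31.1 and 58.1 CPM with BMP-off and at 96.1, 84.1 and 81.3 with BMP-on. The groups did not overlap, and the lowest value was the library with the most negative GC trend. The means were 46.3 ± 13.8 and 87.2 ± 7.86 (SD, n = 3), a log2 fold change of 0.91 (SE 0.19, adjusted p = 0.00743), or 1.88-fold. With the correction for GC the change was 0.52 (SE 0.062, adjusted p = 2.06e-06). In WT cells *JUNB* was at 44.2, 56.0 and 64.2 CPM with BMP-off and at 68.0, 65.7 and 68.8 with BMP-on, so these groups also lay apart. The change there was 0.30 (SE 0.19, adjusted p = 0.524) and 0.17 with the correction. *JUNB* shares its place with *HOOK2* on the opposite strand, and whether reads were counted by strand is not given in the sources used here.

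*JUN* (chr1:58776845-58784048, minus strand, single exon) encodes the founding AP-1 subunit. It was at 9.11, 6.87 and 8.79 CPM in KO cells with BMP-off and at 10.4, 11.1 and 10.2 with BMP-on, without overlap. The log2 fold change was 0.35 (SE 0.10, adjusted p = 0.0238). With the correction for GC it was 0.20 (adjusted p = 0.117) and the call was lost. The call was also lost without KO BMP-off replicate 2 (0.23, adjusted p = 0.127), without KO BMP-on replicate 1 (adjusted p = 0.0649) or without KO BMP-on replicate 2 (adjusted p = 0.0804), so it rests on single libraries. Limma-voom (adjusted p = 0.0641) and a model of only the KO libraries (adjusted p = 0.0753) ended it too. The WT libraries held 9.02, 8.48 and 8.73 CPM with BMP-off and 11.1, 10.5 and 9.95 with BMP-on, a change of 0.27 (SE 0.10, adjusted p = 0.193), which is close to that in KO cells.

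*JUND* (chr19:18279694-18281622, minus strand, single exon) encodes the JUN protein that resting cells are known to hold. With BMP-off it was at 30.3, 31.7 and 35.3 CPM in KO cells and with BMP-on at 45.1, 34.5 and 38.8, and the groups overlapped. The log2 fold change of 0.29 (SE 0.11, adjusted p = 0.0882) did not pass the test. It turned to -0.30 (adjusted p = 0.305) with the correction for GC, so that no direction can be given for *JUND*, the gene with the highest GC content of the 10. The uncorrected change passed with DESeq2 (adjusted p = 0.0490), with no filter on low counts (0.00124) and without WT BMP-on replicate 2 (0.0376), the highest WT library with BMP-on. In WT cells the change was -0.080 (SE 0.11, adjusted p = 0.809), and -0.29 (adjusted p = 0.421) with the correction.

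*FOS* (chr14:75278826-75282230, plus strand, 4 exons) encodes the partner that makes the most stable dimers with JUN proteins. It was at 14.8, 14.3 and 17.4 CPM in KO cells with BMP-off and at 19.7, 21.5 and 21.5 with BMP-on. Every BMP-on library was above every BMP-off library. The log2 fold change was 0.43 (SE 0.088, adjusted p = 0.00232), or 34.8% higher. In WT cells the values were 14.9, 15.6 and 14.9 CPM with BMP-off and 20.8, 17.7 and 17.9 with BMP-on, again without overlap. That change was 0.31 (SE 0.089, adjusted p = 0.0651). It passed the test with the correction for GC (0.29, adjusted p = 0.0187), and without KO BMP-off replicate 2 or 3 (adjusted p = 0.0271 and 0.0302), libraries that enter the WT comparison only through the shared estimate of spread.

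*FOSL1* and *FOSL2* encode *FOS* relatives that lack the strong activation domain of *FOS*. *FOSL1* (chr11:65892049-65900573, minus strand) was at 27.5, 26.0 and 28.9 CPM in KO cells with BMP-off and at 25.4, 31.0 and 23.7 with BMP-on, a log2 fold change of -0.045 (SE 0.097, adjusted p = 0.781). With the correction for GC it was -0.28 (adjusted p = 0.0966), and with a replicate block beside the correction its adjusted p was 0.0468. In WT cells *FOSL1* was at 26.7 to 28.2 CPM with BMP-off and at 28.2 to 35.1 with BMP-on, and its change of 0.17 (adjusted p = 0.448), or 0.10 with the correction, did not pass. *FOSL2* (chr2:28392448-28417317, plus strand) stayed between 137 and 169 CPM in all 12 libraries. Its changes were 0.12 (SE 0.058, adjusted p = 0.156) in KO and 0.053 (SE 0.058, adjusted p = 0.734) in WT cells, and 0.047 and 0.033 with the correction. The KO value became 0.18 when KO BMP-off replicate 3 was left out (adjusted p = 0.0153). *FOSL2* overlaps *FOSL2-AS1* on the opposite strand and another gene on its own strand, so its reads may be split.

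*ATF3* (chr1:212565334-212620777, plus strand, 4 exons) encodes a stress-induced ATF protein that mostly represses as a homodimer. It was the gene of the 10 that fell. In KO cells it was at 53.1, 55.5 and 48.0 CPM with BMP-off and at 39.7, 45.4 and 43.2 with BMP-on, without overlap. The mean fell from 52.2 ± 3.82 to 42.8 ± 2.91 (SD, n = 3), a log2 fold change of -0.29 (SE 0.065, adjusted p = 0.00460), and this was -0.27 with the correction for GC. In WT cells *ATF3* was at 53.8, 51.3 and 55.9 CPM with BMP-off and at 45.2, 47.0 and 46.1 with BMP-on, also without overlap. The WT change of -0.22 (SE 0.064, adjusted p = 0.0735) passed with the correction for GC (adjusted p = 0.0149) and without KO BMP-off replicate 2 or 3 (adjusted p = 0.0315 and 0.0389).

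*EGR1* (chr5:138465479-138469303, plus strand, 2 exons), a zinc finger factor and the best-known readout of MAP kinase and serum response factor activity, did not pass the test in either state. In KO cells it was at 4.68, 5.06 and 6.14 CPM with BMP-off and 5.44, 6.58 and 5.36 with BMP-on (0.13, SE 0.13, adjusted p = 0.520, and 0.0027 with the correction for GC). The WT change was 0.21 (SE 0.13, adjusted p = 0.494), and both pairs of groups overlapped. The 95% intervals were -0.15 to 0.40 in KO and -0.065 to 0.48 in WT cells, with 110 to 165 counts behind each value, the lowest of the 10 genes.

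*IER2* (chr19:13150411-13154911, plus strand, 2 exons) encodes a small nuclear protein that rises with serum. Without the correction for GC, its BMP response in KO cells had the smallest adjusted p of the 10. It was at 33.5, 33.3 and 39.5 CPM in KO cells with BMP-off and at 58.1, 56.7 and 52.2 with BMP-on. The means were 35.5 ± 3.50 and 55.7 ± 3.04 (SD, n = 3), a log2 fold change of 0.65 (SE 0.078, adjusted p = 1.97e-05), or 57.1% higher. With the correction for GC the change was 0.33 (SE 0.072, adjusted p = 0.00213). In WT cells the values were 34.9, 38.2 and 39.4 CPM with BMP-off and 47.0, 43.4 and 40.0 with BMP-on, which did not overlap and differed by 0.21 (SE 0.079, adjusted p = 0.173), or by 0.11 (adjusted p = 0.428) with the correction. *IER2* overlaps unnamed genes on the opposite strand.

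*MYC* (chr8:127735434-127742951, plus strand, 3 exons) was at 25.2, 20.8 and 23.0 CPM in KO cells with BMP-off and at 29.2, 32.4 and 29.7 with BMP-on. The 3 KO BMP-on libraries were the highest of all 12. The means were 23.0 ± 2.19 and 30.4 ± 1.71 (SD, n = 3), a log2 fold change of 0.40 (SE 0.074, adjusted p = 9.70e-04), and the correction for GC left it at 0.40. In WT cells *MYC* was at 22.9, 22.3 and 21.9 CPM with BMP-off and at 25.4, 23.6 and 24.4 with BMP-on. These groups did not overlap, but the change of 0.13 (SE 0.075, adjusted p = 0.461) did not pass. *MYC* overlaps *CASC11* on the opposite strand.

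Counted over the 10 genes, BMP-on and BMP-off libraries of WT cells lay apart for 6 genes that were higher (*FOS*, *FOSL1*, *JUN*, *JUNB*, *IER2* and *MYC*), where 11.2% of all genes did so, and for 1 that was lower (*ATF3*), where 12.7% did. In KO cells they lay apart for 5 higher genes, where 17.9% of all genes did, and for 1 lower gene, where 17.8% did. Both responses therefore held *FOS*, *JUN*, *JUNB*, *IER2* and *MYC* on the higher side and *ATF3* on the lower side, and the sizes differed from gene to gene.

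**Figure D4:**
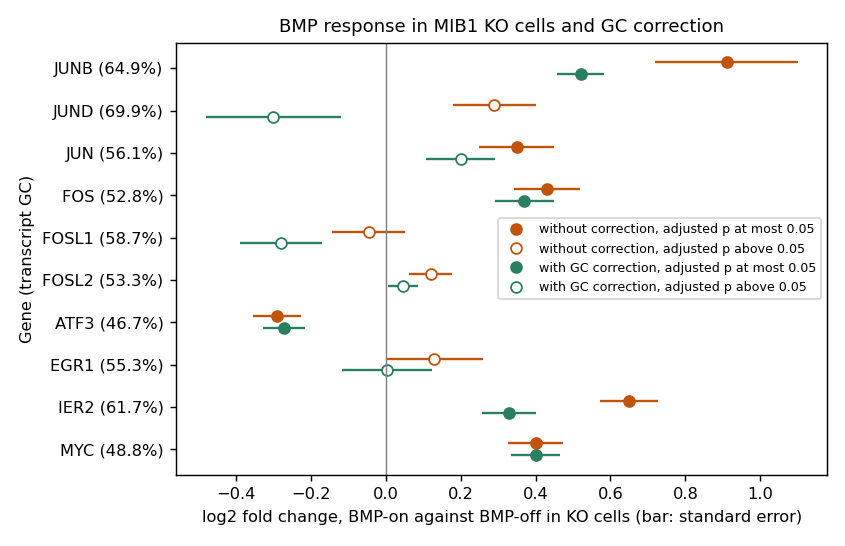
Log2 fold change of the 10 genes with BMP-on against BMP-off in KO cells, without and with a correction for transcript GC content (bars are standard errors, and the GC content of each transcript stands in parentheses). *JUNB* moves from 0.91 to 0.52, *IER2* from 0.65 to 0.33 and *JUND* from 0.29 to -0.30, whereas *MYC* stays at 0.40 and *ATF3* moves from -0.29 to -0.27.

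MIB1 KO was compared with WT in each BMP state. With BMP-on, 2 of the 10 genes were higher in KO cells (*IER2* and *MYC*), where 1.32% of all genes were called higher, and none was lower by edgeR, where 2.34% were. No gene of the 10 also had a log2 fold change of 1, which 0.140% of genes had. *IER2* was at 43.5 ± 3.51 CPM in WT and 55.7 ± 3.04 in KO cells (SD, n = 3), a log2 fold change of 0.36 (SE 0.077, adjusted p = 0.0140). *MYC* was at 24.5 ± 0.898 and 30.4 ± 1.71 CPM, a change of 0.31 (SE 0.073, adjusted p = 0.0228). Both values use the KO BMP-on libraries that also enter the BMP response of KO cells. Both calls depend on single libraries. *IER2* lost its call without WT BMP-on replicate 2 (adjusted p = 0.0516) or 3 (0.0907) and without KO BMP-on replicate 1 (0.0671) or 2 (0.0684). *MYC* lost it without WT BMP-on replicate 2 (adjusted p = 0.117) or 3 (0.0977) and without KO BMP-on replicate 2 (0.122) or 3 (0.0575).

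*JUNB* differed by 0.37 on the log2 scale with BMP-on (SE 0.19, adjusted p = 0.446), and its KO libraries were all above the WT libraries. It passed the test with the correction for GC (0.27, SE 0.060, adjusted p = 0.00667), and in a model of only these 6 libraries, without the variable BMP-off libraries (0.37, adjusted p = 7.96e-05). KO libraries lay above all WT libraries for 3 of the 10 genes (*JUNB*, *IER2* and *MYC*), where 11.4% of all genes did so, and below them for 0, where 12.2% did. *FOSL1* (-0.21, adjusted p = 0.352), *FOS* (0.15, adjusted p = 0.473) and *ATF3* (-0.11, adjusted p = 0.499) did not pass, and the values of *JUN*, *FOSL2*, *EGR1* and *JUND* were between -0.014 and 0.053.

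With BMP-off, where LDN was kept beside BMP4, edgeR called 0 of the 10 between KO and WT cells. Of all genes, 0.00582% were called higher there, 0.0349% lower and 0.0116% with a log2 fold change of 1 as well. An unadjusted p under 0.05 was found for 1 of the 10, and DESeq2 and limma-voom called 0. This was *JUND*, at 36.5, 42.4 and 42.2 CPM in WT and at 30.3, 31.7 and 35.3 in KO cells, a change of -0.32 (SE 0.11, adjusted p = 0.408). It was the single gene of the 10 whose groups lay apart on the lower side, where 5.96% of all genes did, and 0 lay apart on the higher side, where 5.76% did. The correction for GC reduced the *JUND* difference to -0.073. *IER2* and *MYC*, the genes called with BMP-on, differed by -0.080 (95% interval -0.25 to 0.088) and 0.040 (-0.12 to 0.20) with BMP-off, and the correction turned the *IER2* value to 0.062. Of the 7 BMP control genes, 6 had positive values in KO against WT cells with BMP-off and 1 a negative value. Their median was 0.24, and edgeR called 0 of them. The correction for GC called 1 (*ID1*, 0.30, adjusted p = 0.0142), where it called 21 of 17188 genes higher. Whether LDN blocked BMP signaling fully was not tested.

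Whether the BMP response itself differed between KO and WT cells was tested by the interaction. By edgeR it was called for 0 of the 10 genes, where 0.0407% of all genes were called higher in KO and 0.0524% lower, and 0% of genes had a log2 difference of 1 beside that p. The correction for GC gave 62 genes higher and 174 lower, against 7 and 9 without it. An unadjusted p under 0.05 was found for 4 of the 10, limma-voom called 0 and DESeq2 called 1 (*IER2*, adjusted p = 0.0358). For *IER2* the KO response exceeded the WT response by 0.44 (SE 0.11, edgeR adjusted p = 0.135), and by 0.22 with the correction for GC. It passed without WT BMP-off replicate 1 (0.48, adjusted p = 0.0471) or KO BMP-off replicate 3 (0.51, adjusted p = 0.0217). The excess was 0.61 (SE 0.27, adjusted p = 0.472) for *JUNB*, and 0.34 (SE 0.088, adjusted p = 0.0555) with the correction for GC. It was 0.27 (SE 0.10, adjusted p = 0.360) for *MYC* and 0.12 (SE 0.12, adjusted p = 0.722) for *FOS*. Calls in KO cells and not in WT cells are therefore no test of a difference between the responses, and these excesses did not pass one by edgeR.

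Other genes of the same program were described from lists. Of 21 further immediate early genes, 19 were tested, and in the BMP response of KO cells 7 were higher and 4 lower, beside 11.1% and 10.9% of all genes, with a median log2 fold change of 0.094. The correction for GC gave 4 higher and 6 lower. Of all 17188 genes it gave 1841 higher and 2410 lower in KO cells, against 1903 and 1874 without it. *DUSP1*, the phosphatase that turns off MAP kinases, rose from 76.9 to 130 CPM in KO cells (log2 0.76, SE 0.051, adjusted p = 5.52e-08) and from 81.7 to 109 in WT cells (0.42, SE 0.051, adjusted p = 1.04e-04). *PLK2*, a kinase of the cell cycle and of synapses, fell by 0.91 (adjusted p = 9.77e-07) in KO and by 0.54 (adjusted p = 6.51e-04) in WT cells. *TRIB1*, a scaffold for the COP1 ubiquitin ligase, rose by 0.49 (adjusted p = 1.34e-04) and 0.34 (adjusted p = 0.0123). In WT cells these 3 were the ones called, 2 higher and 1 lower, beside 1.91% and 2.01% of all genes. *DUSP1* (0.25, adjusted p = 0.00848) and *PLK2* (-0.50, adjusted p = 0.00213) also differed between KO and WT cells with BMP-on. The list thus moved in both directions.

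**Figure D5:**
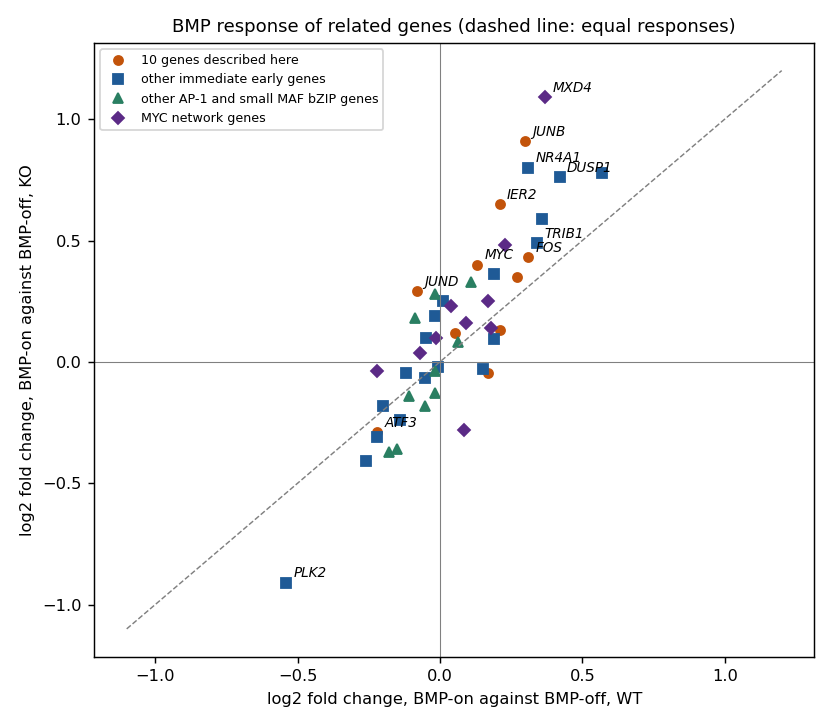
Log2 fold change with BMP-on against BMP-off in WT (horizontal axis) and KO cells (vertical axis) for the 10 genes, 19 other immediate early genes, 10 other AP-1 and small MAF genes and 10 MYC network genes, each point a gene and the dashed line equal responses. *DUSP1* lies at 0.42 and 0.76, *MXD4* at 0.37 and 1.09 and *PLK2* at -0.54 and -0.91.

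Of 12 other AP-1 and small MAF genes, 10 were tested, and 1 was higher and 2 were lower in KO cells, beside 11.1% and 10.9% of all genes, with 0 called in WT cells by edgeR. *MAFF*, a small MAF protein without an activation domain, fell by 0.36 (adjusted p = 0.00163), and by 0.70 with the correction for GC. *JDP2*, a repressor that dimerizes with *JUN*, rose by 0.33 (adjusted p = 0.0246), and *ATF2* fell by 0.14 (adjusted p = 0.0359). The correction left *ATF2* at -0.049 (adjusted p = 0.437), without a call. *FOSB* stayed at 5.31 to 5.52 CPM as group means. Of 18 upstream genes of serum response factor, its cofactors and MAP kinases, all tested, 2 were higher and 2 lower in KO cells, a share like that of all genes (11.1% and 10.9%), and edgeR called 0 in WT cells. *MRTFA*, the actin-regulated cofactor of serum response factor, rose by 0.52 (adjusted p = 0.00117), and by 0.21 with the correction for GC. *RPS6KA1*, a kinase below ERK, rose by 0.34 (adjusted p = 0.00368), or 0.17 with the correction, and its relative *RPS6KA3* fell by 0.24 (adjusted p = 0.00744).

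Of 12 MYC network genes, 10 were tested, and 4 were higher and 0 lower in KO cells by edgeR, beside 11.1% and 10.9% of all genes. The corrected fit gave 2 higher and 0 lower, beside 1841 and 2410 of 17188 genes. *MXD4*, a MAX partner that opposes *MYC*, rose from 10.7 to 22.7 CPM (log2 1.09, SE 0.14, adjusted p = 1.08e-04). *MXI1*, another antagonist, rose by 0.23 (adjusted p = 0.0208). The antagonist *MNT* rose by 0.48 (adjusted p = 0.0278), but the correction took it to 0.18 (adjusted p = 0.0659), without a call. Under BMP-on, *MXI1* also differed between KO and WT cells (0.25, adjusted p = 0.0483). Of 23 MYC target genes, all tested, 3 were higher and 3 lower in KO cells, beside 11.1% and 10.9% of all genes, with a median of -0.058 against 0.0056 over all genes. The corrected fit called 2 higher and 5 lower, again beside 1841 and 2410 of 17188 genes. *RRP12* and *RRP9*, both of ribosome assembly, rose by 0.36 each (adjusted p = 0.00697 and 0.0128) without the correction for GC. With it *RRP12* was at 0.14 (adjusted p = 0.0378) and *RRP9* at 0.065 (adjusted p = 0.456), so that *RRP9* lost its call. *PPAT*, the first enzyme of purine synthesis, fell by 0.19 (adjusted p = 0.0106) and was at -0.070 (adjusted p = 0.216) with the correction, without a call. In WT cells edgeR called 0 of the 23.

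Of 18 AP-1 target genes, 17 were tested, and 4 were higher and 5 lower in KO cells (11.1% and 10.9% of all genes). In WT cells 3 were higher and 2 lower (1.91% and 2.01% of all genes). When KO was compared with WT under BMP-on, 0 were higher and 2 lower (1.32% and 2.34% of all genes). *IL6*, a cytokine that AP-1 and NF-κB activate, had the largest change of the list and fell by 1.70 (adjusted p = 6.63e-08) in KO and by 1.28 (adjusted p = 2.25e-06) in WT cells. Under BMP-on, KO cells also held less of it than WT cells (log2 -0.55, adjusted p = 0.0188). *PLAU*, the urokinase protease, fell by 0.35 (adjusted p = 8.38e-05) in KO and by 0.25 (adjusted p = 0.00623) in WT cells. *HMOX1*, the heme-degrading enzyme, rose by 0.61 (adjusted p = 2.65e-04) in KO cells, or 0.39 with the correction for GC, and by 0.38 (adjusted p = 0.0342) in WT cells. *CCND1*, cyclin D1, rose by 0.26 in each (adjusted p = 0.00249 and 0.00929). The target list had no common direction, with medians of -0.037 in KO and 0.11 in WT cells.

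Among 12836 genes with a mean of at least 50 counts, the profile over the 12 libraries most like that of *JUNB* was that of *LZTS2* (Pearson r = 0.992 on log2 CPM), followed by *ARHGEF10L* (0.991). *ATOSB* and *NEU1* were most like *IER2* (0.969 each), *GADD45B* (0.956) and *POLR2C* (0.953) most like *MYC*, *MTMR7* (0.982) and *MED20* (0.962) most like *ATF3*, and *ACOT11* (0.956) and *DMRTA2* (0.951) most like *FOS*. For *JUN* these were *JADE2* (0.968) and *CERK* (0.962), for *FOSL2* *NUMA1* (0.970) and *GYS1* (0.968), for *FOSL1* *FAM193A* (0.923) and *FHL2* (0.916), for *EGR1* *PER3* (0.917) and *FAM53C* (0.874), and for *JUND* *SYNGR3* (0.896) and *ALDH3B1* (0.886). The 12 points share the treatment groups and, for *JUNB* and *FOSL2*, the GC trend of the libraries. Within groups, the deviations of *JUN* and *MYC* went together with r = 0.851 and those of *EGR1* and *IER2* with r = 0.794 (12 libraries), whereas *JUND* and *MYC* had r = -0.537.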

How the data were processed

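RNA-seq of 12 libraries in 4 groups of 3 was used, with groups taken from the sample labels. The authors aligned reads, after removal of ribosomal ones, with GSNAP (GRCh38) and used HTSeqGenie to count those within RefSeq exons, and the deposited counts are whole numbers without normalization. The deposited RPKM values, which the authors normalized between libraries, served for levels between genes and for alternatives. Counts were scaled by TMM, filtered by edgeR's default and tested with the quasi-likelihood method (robust, 12 libraries in 1 model) (R 4.3.3, edgeR 4.0.16). There were 5 comparisons, with Benjamini-Hochberg adjustment in each, and calls were made up to an adjusted p of 0.05. Replicates differed by 3.08 to 18.0 times the variance of counting alone. Symbols, positions and GC content came from GENCODE v44. The procedure was also run on simulated counts. These held no GC trend of the libraries, so that run does not cover the effect of this trend.

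The 10 genes, the lists and the rule for naming genes were chosen with earlier results of these data known. The rule named all 10 genes, MIB1, up to 3 genes of each list with the smallest adjusted p per comparison, and the genes most alike in profile; FOSB, ID1, ID3, KRT18, KRT19 and PTPRC were named as members of their lists outside this rule, after their values were seen. Alternatives were DESeq2 1.42.0, limma 3.58.1 (voom with quantile normalization, or log2 RPKM with a pseudocount of 1 or 0.1), other scalings and filters, only the groups compared, a replicate block, a GC correction (loess, span 0.4) and each library left out in turn.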

Additional observations from a re-analysis of the deposited data

How the results depend on the processing

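In the BMP response of WT cells the count of the 10 genes called, 0, was 1 with DESeq2. It was 2 with no filter, in a model of only the groups compared, with the GC correction and with the replicate block beside the GC correction, and it was 0 to 2 with 1 library left out. In KO cells the count of 6 was 5, without JUN, with the GC correction, limma-voom, only the groups compared and log2(RPKM + 1) without a filter. It was 7, with JUND added, with DESeq2 and with no filter. The KO count was 5 to 7 with 1 library left out, and 0 when a log2 fold change of 1 was also required. For KO against WT with BMP-on the count of 2 was 3, with JUNB added, with the GC correction, with the block beside it and in a model of only the groups compared. It was 0 with log2(RPKM + 1) without a filter and with the fold rule, and 0 to 2 with 1 library left out. With BMP-off it was 1 without a filter (JUND). The interaction count was 1 with DESeq2, 2 without a filter (IER2 and JUND), and 0 to 1 with 1 library left out. Of 1240 values of single genes under the alternatives, 47 reversed, 27 gained a call and 18 lost one. No scaling moved the median of all genes by more than 0.1.

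Replicate numbers were not used as pairs in the main model. Residuals correlated above 0.1 in 2 of 18 same-numbered pairs (range -0.187 to 0.189). Pairs with different numbers were not set beside these, and the residuals also hold the GC trend of the libraries. Pairing is therefore not excluded. A replicate block alone left the counts of called genes at 0, 6, 2, 0 and 0. It turned JUN in KO against WT with BMP-on to -0.00067.

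Reversals were of values near 0 except for JUND, whose BMP response in KO cells was -0.30 with the GC correction and -0.29 with the block beside it. For KO against WT with BMP-on, the GC correction and the same with the block gave -0.036 and -0.039 for JUN, -0.073 and -0.056 for JUND, and -0.017 and -0.013 for EGR1. There voom gave 0.017 for FOSL2, -0.024 for JUN and -0.033 for EGR1, library size gave 0.0096 for FOSL2, no filter gave -0.0053 for JUN, and log2 RPKM gave -0.0041 or -0.0051 for JUN. With BMP-off IER2 became 0.062 and 0.063, and in the interaction JUN became -0.019 and -0.022 and JUND -0.00043. With 1 library left out, some genes reversed in some of the fits. Over all such fits, reversed or not, the values of these genes ranged from -0.16 to 0.028 for FOSL1 in the KO response. With BMP-on they ranged from -0.034 to 0.015 for FOSL2, -0.043 to 0.039 for JUN, -0.057 to 0.18 for JUND and -0.08 to 0.068 for EGR1. With BMP-off they ranged from -0.048 to 0.086 for FOS, -0.021 to 0.044 for FOSL1, -0.16 to 0.033 for JUN, -0.011 to 0.19 for EGR1, -0.085 to 0.026 for ATF3 and -0.028 to 0.11 for MYC, and in the interaction from -0.035 to 0.16 for JUN and -0.17 to 0.022 for EGR1. The cause was not tested.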
